A study of Homo sapiens with 12 samples.

Results

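The 10 genes described here encode enzymes and a chaperone that modify collagen. They are the catalytic subunits of collagen prolyl 4-hydroxylase (P4HA1, P4HA2 and P4HA3), the lysyl hydroxylases (PLOD1, PLOD2 and PLOD3), the collagen chaperone HSP47 (gene SERPINH1) and 3 lysyl oxidases (LOX, LOXL2 and LOXL4). They were taken by gene symbol from a count table of 62703 genes, and were chosen with earlier results of these data known. All 10 passed the filter on low counts that left 21567 genes for testing.

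RNA was sequenced from H69 cells, an immortalised human cholangiocyte line, that is, a line of the epithelium that lines bile ducts. All cells were kept without serum for 6 h and were then treated overnight in serum-free medium. The 4 groups of 3 libraries received vehicle, TGFβ at 10 ng/mL, Aramchol at 30 μM, or TGFβ at 10 ng/mL together with Aramchol at 30 μM. TGFβ is the main profibrotic cytokine of the liver, and Aramchol is a conjugate of a bile acid and a fatty acid that inhibits stearoyl-CoA desaturase. All groups come from 1 cell line, and the labels do not say whether the libraries of a group came from separate cultures, so the p-values may rest on technical spread alone.

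Collagen chains are modified before and after they leave the cell. In the endoplasmic reticulum, prolyl 4-hydroxylases convert prolines to 4-hydroxyproline, which stabilises the triple helix, and lysyl hydroxylases convert lysines to hydroxylysine, which carries sugars and takes part in crosslinks. HSP47 binds the folded triple helix on its way to the Golgi, and outside the cell the copper-dependent lysyl oxidases oxidise lysine and hydroxylysine, the step that starts covalent crosslinking of collagen and elastin. In fibrotic bile ducts and liver these enzymes are known for stiffening the matrix, and P4HA1, P4HA2, PLOD2 and LOX are textbook targets of the hypoxia-inducible factors (HIF).

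The libraries held 52279922 to 70339925 counts, at which 3 counts corresponded to 0.0427 to 0.0574 CPM (counts per 1000000). Intervals given below cover the spread between libraries, and the reads carried no stated molecular identifiers. The epithelial keratins KRT7, KRT8 and KRT18 were present in every group, with group means of 506 to 938 CPM for KRT7, whereas CFTR and SCTR, also cholangiocyte genes, had group means at or below 0.08 CPM and were not tested. Of 11 cholangiocyte markers 7 passed the filter, of which 3 were higher with TGFβ (KRT7, KRT8 and the water channel AQP1, at 0.385 CPM with vehicle and 8.09 CPM with TGFβ) and 3 lower (EPCAM from 7.76 to 3.37 CPM, SOX9 from 10.002 to 5.57 CPM and KRT19 from 27.4 to 18.4 CPM). Of 9 fibroblast markers, 7 also passed the filter, with THY1 at group means of 89.6 to 123 CPM and PDGFRB at 43.8 to 205 CPM, while COL3A1, a defining fibroblast collagen, did not pass. With TGFβ, 5 of these 7 were higher and 1 was lower, and the part of either marker list in the results below was not tested. In bulk RNA, a change in the number of cells of a kind and a change in RNA per cell cannot be told apart. The libraries numbered 3 stood apart on the third principal component of all tested genes, where their scores were 17.0 to 35.1 and the other libraries scored -20.4 to -5.50. For 8 of the 10 genes, all but P4HA3 and PLOD3, library 3 was the highest of its group in both groups given TGFβ, which held for 18.8% of all tested genes.

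With TGFβ alone, 9 of the 10 genes were higher than with vehicle, and no library of one group reached into the range of the other for those 9; 23% of all tested genes lay higher without overlap. The rise ran from 1.32-fold for PLOD3 to 10.97-fold for P4HA3. LOXL4 did not pass the test. A gene was called changed at an adjusted p under 0.05 by the quasi-likelihood test of edgeR with Benjamini-Hochberg adjustment over all tested genes, and by this rule 18.9% of all tested genes were called higher with TGFβ. The median log2 fold change was 1.14 over the 10 genes and -0.03 over all tested genes.

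**Figure D1:**
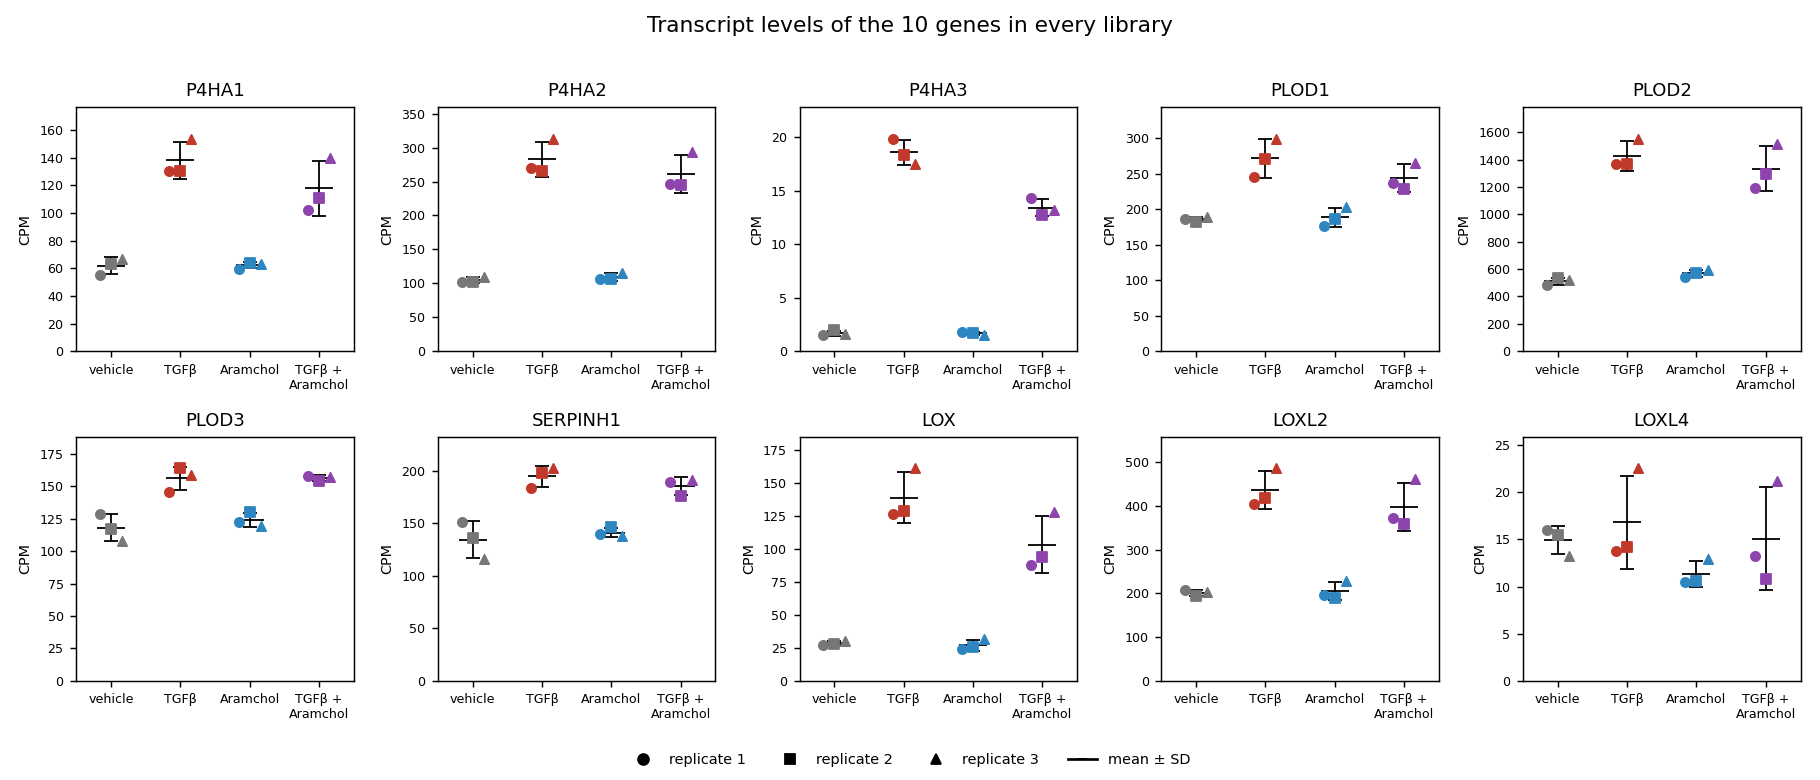
CPM of each of the 10 genes in each of the 12 libraries (points), with the group mean (horizontal line) and SD (whisker), 1 panel per gene and each axis starting at 0. In 9 panels both groups given TGFβ lie above both groups not given it, and in the LOXL4 panel the groups with and without TGFβ overlap.

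Stretches of the start regions of 4 of the genes are printed here. They show the letters that the HIF and SMAD factors and the heat shock factor are known to bind. SMAD proteins carry the TGFβ signal to DNA. The sequences are from RefSeq on GRCh38.p14, which held an entry for 8 of the 10 genes (all but P4HA3 and LOXL2), and each window ran 250 bases upstream of the annotated start, taken at the most upstream start for LOX, with 3 starts, and for SERPINH1, with 2. Searched on both strands were ACGTG (the HIF core), CAGAC (the SMAD box), CCAAT and GAANNTTC (a pair of heat shock units), and capitals mark all of these but CCAAT. The windows of these genes overlapped exons of the gene model used for counting. Of the 250 bases, all were exonic in PLOD2, 197 in SERPINH1, 154 in LOX and 108 in P4HA1. The printed stretches of 30 bases lie within those exons. Shown are stretches outside those exons or 30 bases around a match, each read 5′ to 3′ on the strand of the gene. All printed stretches hold a match, and they are a selection. Not printed are further LOX stretches, a P4HA2 stretch, the SERPINH1 bases outside exons and the windows of PLOD1, PLOD3 and LOXL4. Those of PLOD1, PLOD3 and LOXL4 held no match.
P4HA1 upstream, chr10:73096975-73097116, minus strand: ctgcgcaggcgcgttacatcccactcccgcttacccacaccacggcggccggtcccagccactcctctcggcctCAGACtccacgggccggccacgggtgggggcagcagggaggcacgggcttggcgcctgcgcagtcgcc
P4HA1 nearer the start, chr10:73096934-73096963, minus strand: gtgatcgagctCACGTagcgagggctgcag
PLOD2 upstream, chr3:146161366-146161395, minus strand: gtgagcctccaCACGTagccgcaggcagct
PLOD2 nearer the start, chr3:146161315-146161344, minus strand: agcaaacagtcCAGACGTGgggcccaggag
LOX upstream, chr5:122078414-122078509, minus strand: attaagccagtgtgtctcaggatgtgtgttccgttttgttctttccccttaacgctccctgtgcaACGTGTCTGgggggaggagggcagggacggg
LOX nearer the start, chr5:122078339-122078368, minus strand: ccaatcgcattACGTGaacaaatagctgag
SERPINH1, chr11:75562171-75562200, plus strand: ccaactttccaGAAGTTTCtcgggacgggc

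LOX held 4 matches to the HIF core in its window, PLOD2 held 2 and P4HA1 held 1, and none was found in P4HA2, PLOD1, PLOD3, SERPINH1 or LOXL4. Of 35116 promoter windows of that length, 18.5% held at least 1 match. The SMAD box was found in P4HA1, P4HA2, PLOD2 and LOX, once in each, and in 38.0% of all windows. In PLOD2 the SMAD box and the HIF core share letters within CAGACGTG, and in LOX they do so within ACGTGTCTG. CCAAT was found in P4HA2, PLOD2 and LOX and in 32.01% of all windows. The heat shock pair was found in SERPINH1 alone of the 8, and in 5.78% of all windows. A match describes letters only, and binding was not measured.

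P4HA1 (ENSG00000122884, GRCh38 chr10:73007217-73096974, minus strand) encodes the widely expressed catalytic subunit of prolyl 4-hydroxylase. Its level was 55.2, 63.3 and 67.0 CPM in the 3 vehicle libraries and 130.4, 130.2 and 153.6 CPM in the 3 TGFβ libraries. It was 59.5, 64.0 and 63.2 CPM with Aramchol and 102.2, 110.8 and 140.1 CPM with both agents. The 6 libraries given TGFβ were all above the 6 that were not. The log2 fold change of TGFβ over vehicle was 1.16 (SE 0.104, adjusted p = 2.61e-07, edgeR).

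P4HA2 (ENSG00000072682, chr5:132190147-132295315, minus strand), a second catalytic subunit, rose from 105 ± 3.96 CPM (SD, n = 3) with vehicle to 283 ± 26.2 CPM (SD, n = 3) with TGFβ. On the log2 scale this rise was 1.43 (SE 0.0785, adjusted p = 9.23e-10, edgeR). Its gene model shares 548 exon bases, 5.41% of its length, with the antisense gene P4HA2-AS1, which held 154 counts over the 12 libraries. No source used here gives the strand setting of the counting, so reads in such overlaps cannot be told apart. Exon bases were also shared by PLOD3 with ZNHIT1 (102 bases), LOX with SRFBP1 (138) and LOXL4 with an antisense gene (152). LOXL2 shared 120 with ENTPD4, on the same strand, and 178 with LOXL2-AS1. P4HA1 shared 47 with an antisense gene.

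P4HA3 (ENSG00000149380, chr11:74235801-74311640, minus strand) encodes the least studied catalytic subunit and had, per length, the lowest level in vehicle cells, and the largest rise of the 10. It had 1.54, 1.96 and 1.58 CPM with vehicle, from 99, 119 and 110 counts. With TGFβ it had 19.8, 18.4 and 17.5 CPM, from 1181, 1170 and 962 counts. With Aramchol alone it was at 1.79, 1.74 and 1.52 CPM, and with both agents it was at 14.3, 12.7 and 13.2 CPM. The 4 groups thus fell into 3 separate ranges: the 2 groups without TGFβ overlapped, the group with both agents lay above them, and the group with TGFβ alone lay highest. The log2 fold change of TGFβ over vehicle was 3.46 (SE 0.113, adjusted p = 3.47e-12, edgeR), or 10.97-fold. P4HA3 shares 166 exon bases (4.16% of its length) with PPME1 on the opposite strand. PPME1 had group means of 87.1 to 98.5 CPM, and its log2 fold change of TGFβ over vehicle was -0.18 (adjusted p = 0.119, edgeR), the opposite sign to P4HA3.

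PLOD1 (ENSG00000083444, chr1:11934205-11975538, plus strand), a lysyl hydroxylase of helical lysines, rose from 186 ± 3.21 CPM (SD, n = 3) to 272 ± 27.0 CPM (SD, n = 3) with TGFβ. On the log2 scale it rose by 0.55 (SE 0.0747, adjusted p = 2.66e-05, edgeR). PLOD3 (ENSG00000106397, chr7:101205977-101218420, minus strand), which also has glycosyltransferase activity, rose from 118 ± 10.6 CPM (SD, n = 3) to 156 ± 9.16 CPM (SD, n = 3). Its log2 fold change was 0.40 (SE 0.0645, adjusted p = 0.000124, edgeR), the smallest of the 9 called.

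PLOD2 (ENSG00000152952, chr3:146035139-146163725, minus strand) encodes the lysyl hydroxylase of telopeptide lysines, whose product gives the pyridinoline crosslinks of fibrotic tissue. It had 481, 534 and 518 CPM with vehicle and 1365, 1366 and 1551 CPM with TGFβ. It had 540.0, 574 and 593 CPM with Aramchol and 1196, 1292 and 1516 CPM with both agents. Per length PLOD2 had the highest level of the 10 in each of the 4 groups, and the TGFβ rise was 2.79-fold, a log2 fold change of 1.48 (SE 0.0819, adjusted p = 9.90e-10, edgeR). Of the 3 lysyl hydroxylases it had the largest fold change.

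SERPINH1 (ENSG00000149257, chr11:75562056-75572783, plus strand) had 151.1, 136.4 and 116.4 CPM with vehicle and 183.8, 198.5 and 202.5 CPM with TGFβ. With Aramchol alone it had 140.0, 146.2 and 137.8 CPM, and with both agents 189.4, 175.9 and 191.7 CPM. All 6 libraries given TGFβ were above all 6 that were not. The log2 fold change of TGFβ over vehicle was 0.53 (SE 0.0765, adjusted p = 4.23e-05, edgeR), among the smaller rises of the 9.

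LOX (ENSG00000113083, chr5:122063195-122078413, minus strand), the founding lysyl oxidase, had 27.2, 28.1 and 30.4 CPM with vehicle and 126.2, 128.8 and 160.7 CPM with TGFβ. With Aramchol alone it had 23.7, 25.4 and 31.5 CPM. With both agents it had 87.9, 93.8 and 127.6 CPM, so that library 3 of that group reached into the range of TGFβ alone. The TGFβ rise was 4.85-fold, a log2 fold change of 2.28 (SE 0.138, adjusted p = 2.80e-09, edgeR), second to P4HA3 among the 10.

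LOXL2 (ENSG00000134013), a secreted lysyl oxidase long studied in liver fibrosis, had 207.1, 193.4 and 203.0 CPM with vehicle and 404, 419 and 485 CPM with TGFβ. This was a log2 fold change of 1.12 (SE 0.0954, adjusted p = 1.53e-07, edgeR). Per length it had the highest level of the 3 lysyl oxidases in all 4 groups.

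LOXL4 (ENSG00000138131, chr10:98247690-98268194, minus strand), a further secreted lysyl oxidase, was the exception. It had 16.02, 15.5 and 13.2 CPM with vehicle and 13.8, 14.2 and 22.5 CPM with TGFβ. With Aramchol alone it had 10.5, 10.5 and 12.95 CPM, and with both agents 13.3, 10.8 and 21.2 CPM. Library 3 was the highest in each group but vehicle, where it was the lowest. The log2 fold change of TGFβ over vehicle was 0.17 (95% interval -0.28 to 0.63, adjusted p = 0.573, edgeR), an interval that lies below the 1.16 of P4HA1.

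In cells given Aramchol, TGFβ gave the same 9 calls. Against Aramchol alone, the cells given both agents had 9 of the 10 genes called higher, against 16% of all tested genes, and the median log2 fold change was 0.94 over the 10 genes and -0.01 over all tested genes. The values ran from 0.33 for PLOD3 to 2.995 for P4HA3, the last a rise of 7.97-fold. LOX rose by 1.94 on the log2 scale, P4HA2 by 1.26, PLOD2 by 1.23, LOXL2 by 0.96, P4HA1 by 0.92, SERPINH1 by 0.39 and PLOD1 by 0.37. LOXL4 had 0.41 (95% interval -0.04 to 0.87, adjusted p = 0.171, edgeR). It was called higher in 2 of 22 alternatives, without the filter on low counts (adjusted p = 0.000232, edgeR) and without library 2 with both agents (0.60, adjusted p = 0.0484, edgeR). Against vehicle, the cells given both agents again had 9 of the 10 called higher, against 18.2% of all tested genes, and LOXL4 had 0.02 (adjusted p = 0.961, edgeR). These comparisons share libraries with the first one and are not independent of it.

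**Figure D2:**
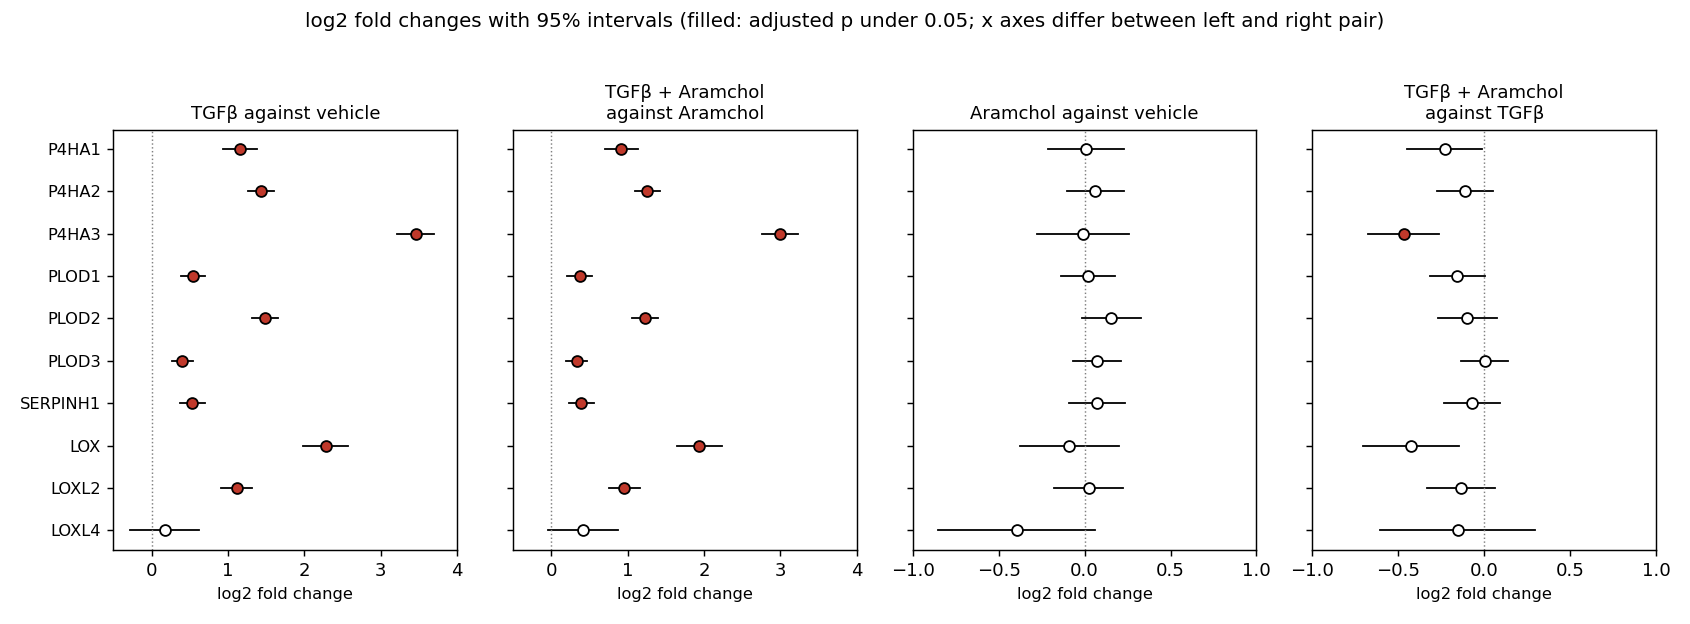
Log2 fold change (point) and 95% interval (line) of each of the 10 genes in 4 comparisons fitted with edgeR, with filled points where the adjusted p was under 0.05. The 2 comparisons for TGFβ lie above 0 for 9 genes, those of Aramchol against vehicle straddle 0, and in the comparison of both agents against TGFβ alone P4HA3 is the filled point.

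Aramchol alone left no detectable change in any of the 10. None was called by edgeR, against 0.357% of all tested genes called in either direction, and none was called by DESeq2. None had an unadjusted p under 0.05 in edgeR, against 11.7% of all tested genes. The log2 fold changes ran from -0.39 for LOXL4 to 0.16 for PLOD2. For P4HA1 the 95% interval was -0.21 to 0.23 and for P4HA3 -0.28 to 0.26. It was -0.09 to 0.23 for SERPINH1 and -0.38 to 0.20 for LOX. Changes within those bounds were not excluded. In 2 genes the 3 Aramchol libraries did not overlap the 3 vehicle libraries, which held for 16% of all tested genes. PLOD2 lay higher (95% interval -0.02 to 0.33, adjusted p = 0.476, edgeR), and LOXL4 lay lower (95% interval -0.85 to 0.06, adjusted p = 0.503, edgeR). LOXL4 was called lower with Aramchol when only the libraries numbered 1 and 2 were used, and when the filter on low counts was dropped.

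Added to TGFβ, Aramchol lowered P4HA3. Against TGFβ alone its log2 fold change was -0.47 (SE 0.0964, 95% interval -0.67 to -0.26, adjusted p = 0.0220, edgeR), or 1.38-fold lower, and the 3 libraries with both agents, at 12.7 to 14.3 CPM, were all below the 3 with TGFβ alone, at 17.5 to 19.8 CPM. It was the 1 gene of the 10 called, against 1.36% of all tested genes called lower. In this comparison 12.2% of all tested genes lay lower without overlap. The call was lost on leaving out TGFβ library 1 (adjusted p = 0.1001, edgeR), TGFβ library 2 (0.0794), TGFβ library 3 (0.0534), library 1 with both agents (0.0652) or library 2 with both agents (0.101), with log2 fold changes of -0.52 to -0.42 in those fits.

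The other 9 genes did not pass the test in the main fit, which had no term for the replicate number. LOX had a log2 fold change of -0.43 (95% interval -0.70 to -0.15, adjusted p = 0.105, edgeR), with overlapping libraries. P4HA1 had -0.23 (95% interval -0.45 to -0.01, adjusted p = 0.260, edgeR). For PLOD2 the interval was -0.27 to 0.07, for PLOD3 -0.13 to 0.14 and for SERPINH1 -0.23 to 0.09. These 3 intervals leave out the estimate of -0.47 for P4HA3, whose own interval of -0.67 to -0.26 overlapped that of PLOD2. A difference between genes was not tested. Values of 9 of the 10 were below 0, as were those of 50.2% of all tested genes, and the median was -0.14 over the 10 genes and 0.00 over all tested genes.

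Calls beyond P4HA3 were gained under other settings. Without the filter on low counts LOX (adjusted p = 2.08e-08, edgeR) and P4HA1 (adjusted p = 0.0115, edgeR) were called lower, and DESeq2 called LOX (adjusted p = 0.0282), with all libraries kept. With a term for the number 3 in the edgeR fit, LOX was called at -0.43 (adjusted p = 0.000219, edgeR), P4HA1 at -0.24 (adjusted p = 0.0356, edgeR) and P4HA3 was called as well, 3 genes in all, against 4.43% of all tested genes called lower. With the libraries numbered 1 and 2 alone, where 5.01% of the genes tested were called lower, 4 of the 10 were: LOX at -0.49 (adjusted p = 8.82e-07, edgeR), P4HA1 at -0.29 (adjusted p = 0.00248, edgeR), P4HA3 and LOXL2. Leaving out library 3 with both agents gave 3 calls, LOX at -0.61 (adjusted p = 0.0143, edgeR), P4HA1 at -0.37 (adjusted p = 0.0378, edgeR) and P4HA3. In LOX, the libraries numbered 1 and 2 with both agents, at 87.9 and 93.8 CPM, lay below all 3 TGFβ libraries, and the one numbered 3, at 127.6 CPM, lay above TGFβ library 1. What sets the libraries numbered 3 apart was not tested.

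Whether the TGFβ rise itself differed with Aramchol was tested as an interaction in edgeR. None of the 10 passed, against 0.0139% of all tested genes. An unadjusted p under 0.05 was found for 2 of the 10 and for 5.27% of all tested genes. For P4HA3 the interaction was -0.46 on the log2 scale (95% interval -0.80 to -0.12, adjusted p = 0.898, edgeR) and for PLOD2 it was -0.25 (95% interval -0.49 to -0.01, adjusted p = 0.943, edgeR). DESeq2, run as an alternative, called none of the 10 either. Values of 9 of the 10 were below 0, against 48.5% of all tested genes.

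Ordered by level per length (CPM per kb of exon length), PLOD2 led in vehicle cells at 47.7 CPM per kb, followed by PLOD1 at 35.002 and LOXL2 at 33.6, whose libraries overlapped. SERPINH1 at 21.4, PLOD3 at 20.8 and P4HA1 at 19.99 CPM per kb came next, each overlapping its neighbour. Then came P4HA2 at 10.3, LOX at 5.11, LOXL4 at 4.15 and P4HA3 at 0.424 CPM per kb, with no overlap between neighbours. With TGFβ the order was PLOD2 at 133, LOXL2 at 72.9, PLOD1 at 51.1, P4HA1 at 44.6, SERPINH1 at 31.0, P4HA2 at 27.9, PLOD3 at 27.5, LOX at 24.8, LOXL4 at 4.68 and P4HA3 at 4.65 CPM per kb. LOXL2 now lay above PLOD1 without overlap. LOX overlapped PLOD3, and P4HA3 overlapped LOXL4, which it had been far below in vehicle cells. PLOD2 held the first place and LOXL2 the second in both groups given TGFβ. These orders depend on the exon lengths used, which ran from 3093 bases for P4HA1 to 10720 for PLOD2.

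Because the genes of a family rose by different factors, the make-up of each family changed. Shares were taken of the summed CPM per kb of a family, and the effect of an agent was tested over libraries, within each level of the other agent, by an exact two-sided permutation test with 400 arrangements, whose smallest possible p is 0.005; the 30 tests on shares and on the collagen ratios below were adjusted together. All 11 shares differed with TGFβ by this test. The shares of a family have a common total, so they are not independent of each other. P4HA3 went from 1.38% ± 0.188 (SD, n = 3) of the summed prolyl 4-hydroxylase CPM per kb with vehicle to 6.07% ± 0.816 (SD, n = 3) with TGFβ. It was at 5.06% ± 0.820 (SD, n = 3) with both agents. The P4HA1 share fell from 64.9% to 57.8% although its own level rose, and that of P4HA2 went from 33.7% to 36.1%. The order of these 2 genes depends on the exon lengths used, 3093 bases for P4HA1 and 10128 for P4HA2. In mean CPM P4HA2 was the higher, at 105 against 61.8 with vehicle and 283 against 138 with TGFβ.

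Among the lysyl hydroxylases PLOD2 went from 46.1% ± 2.09 (SD, n = 3) with vehicle to 62.9% ± 1.24 (SD, n = 3) with TGFβ, a mean shift of 15.8 percentage points over both levels of Aramchol (exact permutation p = 0.005, adjusted p = 0.0115). The shares of PLOD1 and PLOD3 fell from 33.8% to 24.1% and from 20.1% to 13.02%. Per length, the telopeptide enzyme thus made up more than the sum of the other 2 in all 6 libraries given TGFβ (60.6% to 64.5%). It made up less than that sum in all 6 libraries not given TGFβ (43.7% to 48.3%). This crossing depends on the exon lengths used, 10720 bases for PLOD2, 5320 for PLOD1 and 5671 for PLOD3. In mean CPM with vehicle, PLOD2 at 511 already exceeded the sum of PLOD1 at 186 and PLOD3 at 118.

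Among the 5 lysyl oxidases, LOXL1 and LOXL3 included, LOX went from 9.95% to 19.5% with TGFβ and LOXL2 from 65.4% to 57.5%. LOXL4, whose level did not pass the test, went from 8.06% to 3.65%. With Aramchol 2 of the 11 shares changed. The LOXL2 share was higher by 3.13 percentage points (exact permutation p = 0.015, adjusted p = 0.0300). The LOXL3 share was lower by 0.80 percentage points (exact permutation p = 0.02, adjusted p = 0.0353). The level of LOXL2 itself was not called with Aramchol. Its log2 fold change was 0.02 against vehicle (adjusted p = 0.951, edgeR) and -0.13 with both agents against TGFβ alone (adjusted p = 0.512, edgeR). The LOXL2 share was 57.4% to 57.7% in the TGFβ libraries and 60.5% to 61.8% with both agents, without overlap. The LOXL2 call was lost without vehicle library 2 (adjusted p = 0.0536, exact permutation) and kept without any other single library, whereas the LOXL3 call was kept only without vehicle library 3.

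**Figure D3:**
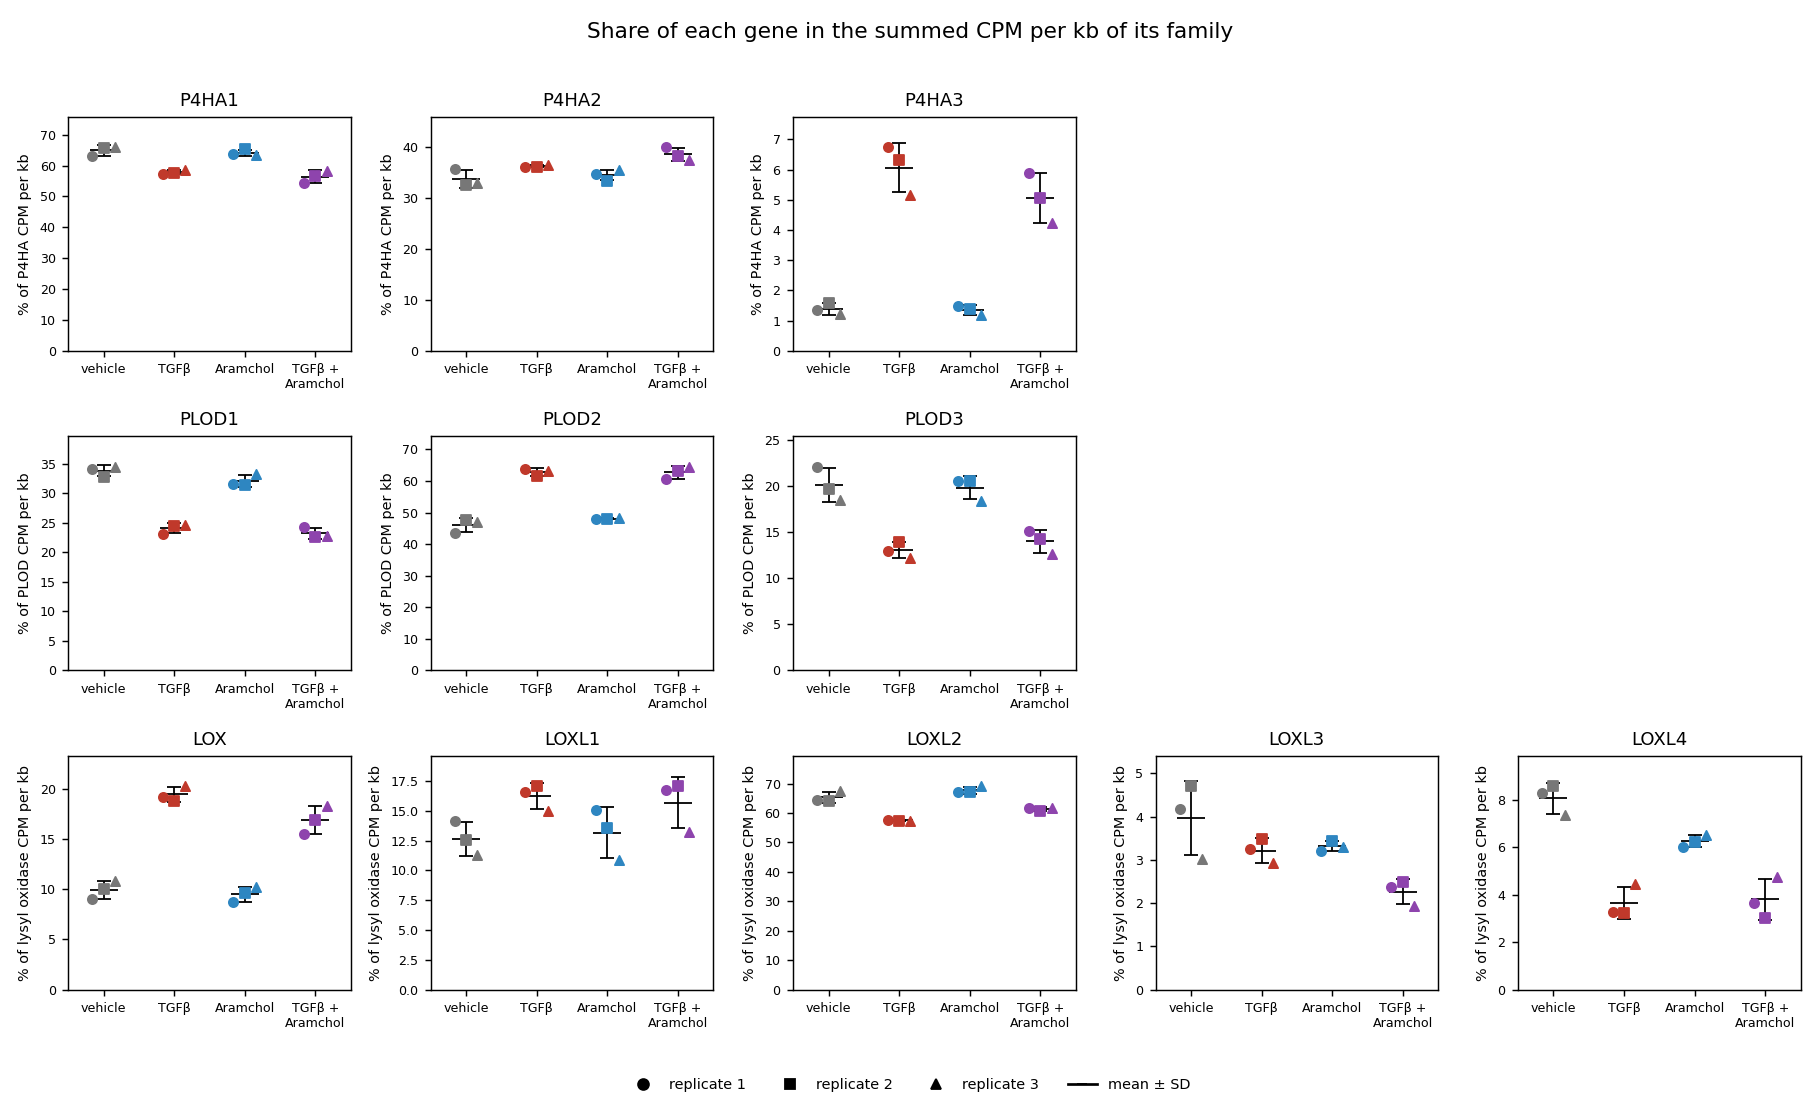
Share of each gene in the summed CPM per kb of its family, in percent, in each of the 12 libraries (points) with the group mean (horizontal line) and SD (whisker), each axis starting at 0. The PLOD2 share is 60.6% to 64.5% in the libraries given TGFβ and 43.7% to 48.3% in the others.

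The summed transcripts of the fibrillar collagen chains, the substrates, rose by more than SERPINH1 and the summed transcripts of each enzyme family did. Of 11 tested of a list of 12 (fibrillar chains and elastin), 7 were called higher and 1 (COL5A3, at or below 0.50 CPM in both groups) lower with TGFβ, with a median log2 fold change of 1.47. COL1A1 went from 1058 ± 92.9 to 4752 ± 782 CPM (SD, n = 3 each), a log2 fold change of 2.17, and COL5A1 from 333 to 2544 CPM, a log2 fold change of 2.93. The 3 prolyl 4-hydroxylase genes together stood at 17.9% of the summed fibrillar collagen CPM per kb with vehicle and at 9.25% with TGFβ. The 3 lysyl hydroxylase genes went from 60.1% to 25.4%, SERPINH1 from 12.4% to 3.73% and the 3 lysyl oxidases from 24.9% to 12.2%. All 4 ratios fell (exact permutation p = 0.005, the smallest possible, adjusted p = 0.0115). They share the same denominator and are not independent of each other.

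In cells given TGFβ, the 4 ratios, which share that denominator, were higher with Aramchol than without it in every library. In that comparison none of the 10 genes was called higher. The lysyl hydroxylase ratio was 34.7%, 34.3% and 29.1% with both agents against 26.5%, 26.5% and 23.2% with TGFβ alone. The SERPINH1 ratio was 5.69%, 5.03% and 4.05% against 3.90%, 4.04% and 3.27%, so that the nearest libraries were 4.05% and 4.04%. In cells without TGFβ the groups with and without Aramchol overlapped, and averaged over both levels of TGFβ the Aramchol difference passed the test for none of the 4 (lysyl hydroxylases 4.68 percentage points, exact permutation p = 0.045, adjusted p = 0.0675). It passed for 1 ratio without vehicle library 3 (lysyl hydroxylases, adjusted p = 0.0441, exact permutation) and for 2 without Aramchol library 3 (lysyl hydroxylases, 0.0417, and SERPINH1, 0.0375). COL1A1 itself had a log2 fold change of -0.45 (adjusted p = 0.0949, edgeR) with both agents against TGFβ alone, and COL5A1 one of -0.51 (adjusted p = 0.0320, edgeR).

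**Figure D4:**
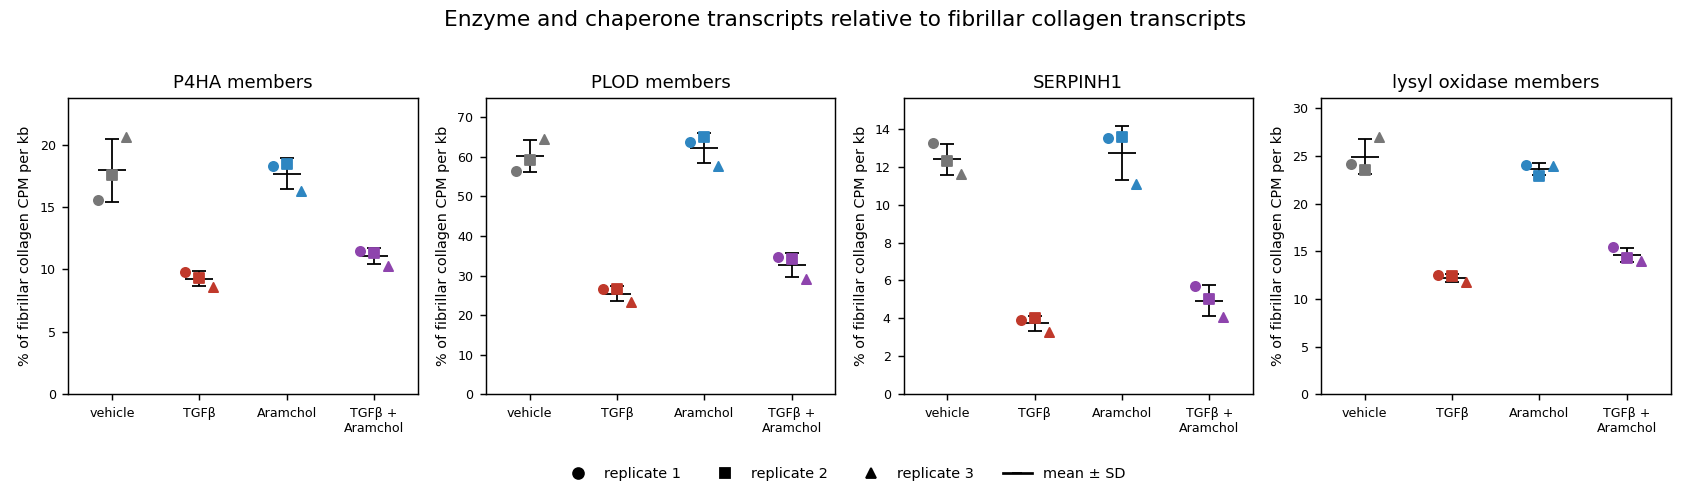
Summed CPM per kb of the prolyl 4-hydroxylases, the lysyl hydroxylases, SERPINH1 and the lysyl oxidases as a percentage of the summed CPM per kb of the fibrillar collagen chains, in each of the 12 libraries (points) with the group mean (horizontal line) and SD (whisker). The ratios are lowest with TGFβ alone, for example 23.2% to 26.5% for the lysyl hydroxylases, and lie above that with both agents.

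Most other genes of collagen modification were also higher with TGFβ. Of 15 on a list of partner and further modifying genes, 11 were higher and none lower with TGFβ, with a median log2 fold change of 0.41. P4HB, the protein disulfide isomerase that forms the other subunit of prolyl 4-hydroxylase, went from 731 ± 16.6 to 959 ± 73.5 CPM (SD, n = 3 each), a log2 fold change of 0.39. All 4 prolyl 3-hydroxylase family genes were called higher, at 0.23 to 0.50, whereas CRTAP, the partner of P3H1, had 0.05 (adjusted p = 0.425, edgeR). PPIB, the prolyl isomerase of the same complex, rose by 0.73, FKBP10 by 0.41 and the collagen galactosyltransferase COLGALT1 by 0.80 on the log2 scale. LOXL1, the lysyl oxidase of elastic fibres, had the largest rise of the list, from 23.7 ± 3.59 to 74.5 ± 3.39 CPM (SD, n = 3 each), a log2 fold change of 1.65.

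LOXL3 was the 1 gene of these 15 called with both agents against TGFβ alone. It had 17.2, 19.2 and 18.7 CPM with TGFβ and 10.8, 11.2 and 10.9 CPM with both agents. The groups did not overlap, which held in this direction for 12.2% of all tested genes. The log2 fold change was -0.75 (SE 0.126, adjusted p = 0.0105, edgeR). With Aramchol alone none of the 15 was called.

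Procollagen processing was mixed. Of 8 genes 3 were higher and 2 lower with TGFβ, with a median log2 fold change of 0.34. BMP1, the C-propeptidase that also activates LOX, went from 160 to 332 CPM, a log2 fold change of 1.05. The N-propeptidases went in opposite directions, ADAMTS2 from 2.49 to 12.2 CPM (2.29 on the log2 scale) and ADAMTS14 from 8.40 to 2.01 CPM (-2.07).

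Of 9 genes for ascorbate and copper handling, 3 were higher and 1 lower with TGFβ, and the median log2 fold change was 0.11. The copper transporters SLC31A1, at 0.25, and ATP7B, at 0.38, were higher, the ascorbate transporter SLC23A2 was lower at -0.21, and ATP7A, which loads copper onto lysyl oxidases, had 0.14 (adjusted p = 0.462, edgeR). Of 8 tested hydroxylases of the same 2-oxoglutarate family with other substrates, 2 were higher (EGLN3, a HIF prolyl hydroxylase, at 1.31 and JMJD6, a lysyl hydroxylase of other proteins, at 0.74) and 3 lower (P4HTM, a membrane prolyl hydroxylase, at -0.69, ASPH and PHYH), with a median log2 fold change of -0.08.

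Genes of the hypoxia response were tallied because several of the 10 are known HIF targets, but a part of HIF in the TGFβ rise was not tested. Of 15 on that list, 10 were higher and none lower with TGFβ, with a median log2 fold change of 0.69. VEGFA, the angiogenic growth factor, went from 108 to 571 CPM (2.40 on the log2 scale) and the glycolytic regulator PFKFB4 from 28.1 to 96.4 CPM (1.78). The carbonic anhydrase gene CA9 had 0.38 (adjusted p = 0.09999, edgeR), and BNIP3 0.08 (adjusted p = 0.263, edgeR). Of 14 heat shock chaperone genes, tallied because HSP47 belongs to that class, 5 were higher and 4 lower with TGFβ, and the median log2 fold change was 0.09. HSPB1, the small heat shock protein, rose by 1.16, and BAG3, a co-chaperone induced by heat shock, fell by 0.20 on the log2 scale. With Aramchol alone no gene of these lists was called. All of the lists were chosen with earlier results of these data known, and their counts describe these libraries. Of all tested genes, 18.9% were called higher and 18.1% lower with TGFβ.

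**Figure D5:**
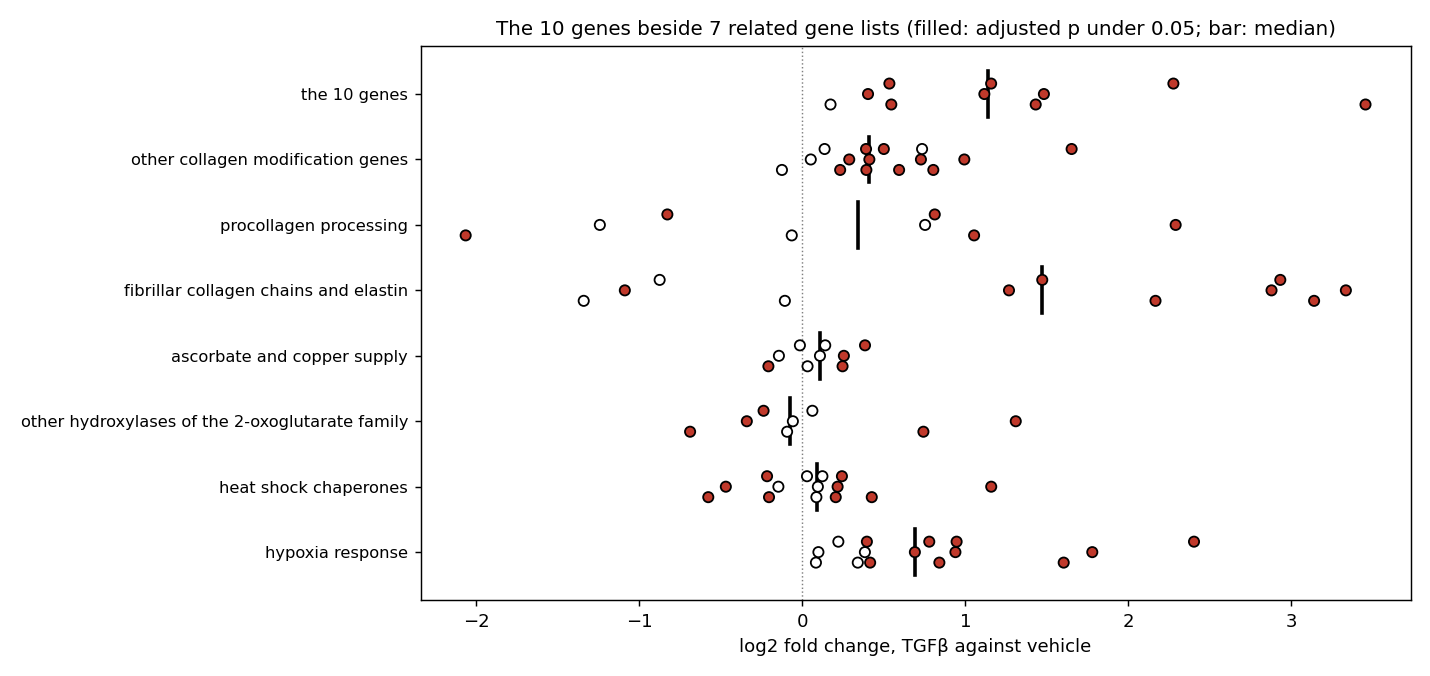
Log2 fold change of TGFβ over vehicle for each tested gene (point) of the 10 genes and of 7 related lists, filled where the adjusted p was under 0.05, with the median of each list (bar) and a dotted line at 0. The medians run from -0.08 for other 2-oxoglutarate hydroxylases to 1.47 for fibrillar collagen chains and elastin, with the 10 genes at 1.14.

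Likeness of profile was described by Pearson's r of log2 CPM over the 12 libraries, among 14541 genes for the mean of the 10 and 14550 for a single gene. Since TGFβ separates the libraries into 2 clusters, r mostly reflects that split, and no test is given. The genes most like the mean of the 10 were COL1A1 (r = 0.996), ADGRA2 (r = 0.996), MRC2 (r = 0.995), BGN (r = 0.995) and PFKP (r = 0.994). COL1A1 encodes a type I collagen chain and MRC2 an uptake receptor for collagen. For LOX the most like gene was COL6A3 (r = 0.999), for P4HA1 COL5A2 (r = 0.993), for LOXL2 COLGALT1 (r = 0.997) and for PLOD1 P4HB (r = 0.986). For P4HA3 it was FRMD6 (r = 0.998), for PLOD2 the zinc transporter SLC39A14 (r = 0.997) and for P4HA2 YIPF5 (r = 0.997). For LOXL4 the most like gene, ZNF133, reached 0.932, the lowest of the 10.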

How the data were processed

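Reads of 12 libraries of human H69 cells were aligned by the authors to GRCh38 with STAR 2.7.9a and counted per gene with featureCounts, per the submitters' processing notes; the deposited values are whole-number counts. No source used here gives the strand setting or the annotation release. Groups came from the sample titles. Counts were fitted with edgeR 4.0.16 in R 4.3.3 (TMM factors of 0.930 to 1.09, filterByExpr, quasi-likelihood test, 1 mean per group over all 12 libraries, Benjamini-Hochberg adjustment over 21567 genes). SE is the log2 fold change over the root of F. CPM uses TMM-scaled library sizes, and CPM per kb divides by the exon length in the table. The fit was tested on simulated data. No 2 libraries of the same group agreed within sampling noise. The members and lists were chosen with earlier results of these data known. Named were all 10 members, list members standing for each role, and the most like genes. Alternatives were other scalings, filters, DESeq2 1.42.0, a block on the replicate number, a term for number 3 and leaving out each library. The main fit had no term for the replicate number. Deviations of the 18 pairs of same-numbered libraries correlated at 0.007 to 0.221, with 7 pairs above 0.1. Pairs numbered 3 were at or above 0.111, and the other same-numbered pairs were at or below 0.107.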

Additional observations from a re-analysis of the deposited data

How the results depend on the processing

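The TGFβ calls of the 9 genes were kept in 22 of 22 alternatives against vehicle, and in 22 of 22 with both agents against Aramchol. LOXL4 with both agents against vehicle reversed, from 0.02 to -0.39 on the log2 scale (adjusted p = 0.00115, edgeR), with only the libraries numbered 1 and 2. With Aramchol alone 1 of the 10 genes (LOXL4) was called without the filter and with only the libraries numbered 1 and 2. With both agents against TGFβ, where 1 gene was called, 3 were called without the filter, with the replicate block (LOX, P4HA1 and P4HA3) and with a term for number 3, 4 with only the libraries numbered 1 and 2, and 2 with DESeq2; leaving out single libraries gave 0 to 3. The replicate block moved no other count of called members by over 1.5 times. Leaving out single libraries, the number of shares changed with Aramchol ran from 0 to 3 and that of collagen ratios from 0 to 2. The cause of these shifts was not tested. Over all genes, calls with both agents against TGFβ went from 192 higher and 294 lower to 727 and 956 with the number 3 term, and to 644 and 875 with the block. P4HA3 with vehicle rested on 99 to 119 counts a library, the lowest of the 10 genes.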
